A study of Xenopus tropicalis with 52 samples.

Results

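The comparison set polyA+ RNA against rRNA-depleted total RNA of the same *Xenopus tropicalis* samples at 0.0, 1.0 and 2.0 hours post fertilisation (hpf), the egg stages before the embryonic genome is active. It rested on 6 of the 52 libraries of the series, chosen by library type and time alone: 3 polyA+ libraries, made from RNA captured by its polyA tail, and 3 Ribo-Zero libraries, in which ribosomal RNA was removed and other RNA was kept with or without a tail. All 6 libraries belong to Series 3, whole embryos from a single fertilisation, with 1 pool of embryos per time point whose RNA was divided between both library types. The 3 time points of a library type served as replicates, so p-values measured the spread between time points of 1 clutch and not between females. A second comparison set these 6 libraries beside the 6 libraries of the same kind at 6.0, 7.0 and 8.0 hpf. The paper puts the mid-blastula transition of this clutch, when large-scale transcription starts, just after 6.0 hpf. The later window therefore begins at about that transition, and only its 7.0 and 8.0 hpf pairs lie clearly after it.

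A fully grown frog oocyte stores many mRNAs with short tails, masked and untranslated, and lengthens the tails of some of them at meiotic maturation, when CPEB bound to the 3' UTR recruits a cytoplasmic polyA polymerase. After fertilisation other mRNAs lose their tails, among them the Eg mRNAs, which carry sequence elements for deadenylation, and in the early embryo a deadenylated mRNA can persist without being degraded. Selection on oligo-dT retains tailed RNA, so the ratio of the polyA+ level to the total level places each transcript relative to the others and does not give tail length.

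The polyA+ libraries held 17348620, 14910366 and 12855659 counts at 0.0, 1.0 and 2.0 hpf, and the Ribo-Zero libraries 10663219, 13562259 and 11521277 counts. Ribosomal reads made up at most 0.0698% of counts in polyA+ libraries and 4.31%, 6.01% and 27.3% in Ribo-Zero libraries. The list of 9 maternal markers summed to between 3836 and 7472 counts per 1000000 effective library counts (CPM) in polyA+ libraries and to between 1089.8 and 1377 CPM in Ribo-Zero libraries. The highest of them was ccnb1, with up to 74920 counts in a library, and the polyA+ sums rest largely on that gene. Of 12 markers of the embryonic genome found in the table, 8 were at 0 in all 6 libraries, and their sum reached at most 0.0984 CPM in polyA+ RNA and 0.766 CPM in Ribo-Zero RNA. Of 12 markers of adult blood and connective tissue, 8 were at 0 throughout, and their sum stayed under 1 CPM in every library. The 1.0 hpf polyA+ library stood apart in its zeros, with 1024 of the genes tested at a count of 0, against 271 and 570 in the 0.0 and 2.0 hpf polyA+ libraries and between 8 and 13 in the Ribo-Zero libraries, and the part of these zeros in the results was not tested. PolyA+ counts were also more concentrated, the 100 most abundant genes taking 23.5% to 27.6% of gene counts in polyA+ libraries and 9.13% to 9.29% in Ribo-Zero libraries.

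PolyA+ and total RNA gave very different accounts of the maternal transcripts. Of 20193 gene rows 11706 passed the filter on low counts and were tested, of which 3104 (26.5%) were rich in polyA+ RNA and 3529 (30.1%) were poor in it, a gene being called where it differed at least 2-fold with an adjusted p under 0.05. The remaining 5073 genes were not called. Values of the 2 library types did not overlap in 3099 of the 3104 rich genes and in 3526 of the 3529 poor genes. Where non-overlap is given below for a called gene, it is thus no support beyond the call. Genes called rich held 71.05% to 75.9% of gene counts in polyA+ libraries and 25.6% to 26.9% in Ribo-Zero libraries, and genes called poor held 3.09% to 4.50% in polyA+ libraries and 32.6% to 33.8% in Ribo-Zero libraries, shares that describe the calls and are no separate test of them. The log2 fold change, polyA+ over Ribo-Zero, had a median of -0.35 and quartiles of -2.21 and 1.24. The filter admits a gene through its Ribo-Zero counts alone, so the poor side includes genes that could enter only because they were high in total RNA. In 111 of the poor genes all 3 polyA+ libraries were at a count of 0, and their fitted fold changes are not given.

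**Figure D1:**
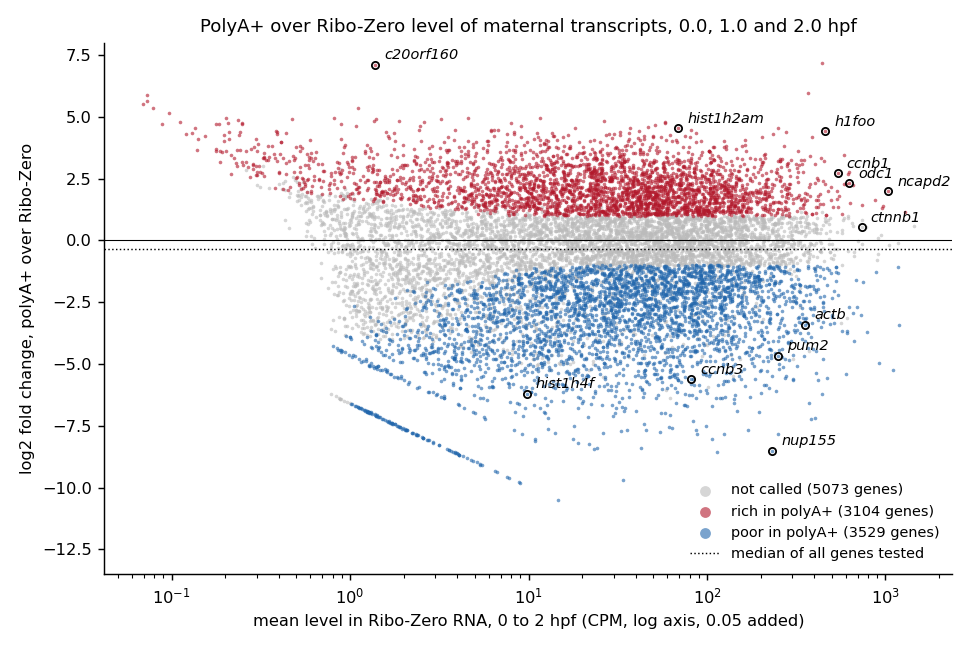
Each point is 1 of the 11706 genes tested, plotted by its mean level in Ribo-Zero RNA at 0 to 2 hpf (CPM, log axis) and its log2 fold change, polyA+ over Ribo-Zero, with genes rich in polyA+ RNA in red, genes poor in it in blue and genes not called in grey. The dotted line is the median of all genes, -0.35, and the slanting rows of points at the lower left are genes with 0 or very few counts in polyA+ libraries.

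The balance of the calls depended on the scale. With the libraries set to equal totals in place of TMM, the median of all genes moved to -1.301 and 1609 genes were rich and 5483 poor, and limma on the deposited normalised values gave 1686 rich and 6066 poor, so every fold change below is best read against the median gene. Without the 2.0 hpf pair 1935 genes were rich and 1698 poor, without the 1.0 hpf pair 2009 and 1782, and without the 0.0 hpf pair 2860 and 3302. These fits rested on fewer libraries and tested 10577, 10565 and 10131 genes, since the filter still asked for 3 libraries. A gene under 10 counts in every polyA+ library could then not pass. Counts of poor genes without a pair can therefore fall through genes no longer tested. In several groups below they fell with the members still tested. Without the 1.0 hpf pair 71 mitochondrial ribosomal proteins were still tested, and the poor count went from 16 to 8. The germ plasm list kept its 25 members without the 1.0 or the 2.0 hpf pair, and went from 7 poor to 4 and 3. Why these calls were lost was not tested. Group counts under these settings are best read against the counts over all genes given here.

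The most abundant polyA+ transcripts carried no gene name. The row 1012073590 stood at 34634, 91061 and 67863 CPM in polyA+ libraries at 0.0, 1.0 and 2.0 hpf, against 245, 441 and 632 CPM in Ribo-Zero libraries, and Xetrov72035281 at 13040.0, 35854 and 24804 CPM in polyA+ RNA, against 294, 417 and 395 CPM in Ribo-Zero RNA. Next came h1foo, the oocyte linker histone, at 9701, 11804 and 8338 CPM in polyA+ libraries, against 436, 499 and 445 CPM in Ribo-Zero libraries (log2 fold change 4.42, SE 0.17, adjusted p = 0.000929). In each of these 3 every polyA+ value was above every Ribo-Zero value, as in nearly all genes called rich. The chromatin protein gene hmgb2 averaged 7194 CPM (SD 1741, n = 3) in polyA+ RNA and 389 CPM (SD 25.1, n = 3) in Ribo-Zero RNA. The reverse held for chd7, a chromatin remodeller, which averaged 111 CPM (SD 25.8) in polyA+ RNA and 1187 CPM (SD 75.6) in Ribo-Zero RNA, and for aspm, a spindle pole protein, which averaged 32.5 CPM (SD 19.1) in polyA+ RNA and 1103 CPM (SD 34.9) in Ribo-Zero RNA.

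Among named genes the largest excess in polyA+ RNA was that of c20orf160, with 106, 266 and 203 CPM in polyA+ libraries and 1.04, 1.09 and 1.87 CPM in Ribo-Zero libraries (log2 fold change 7.11, SE 0.40). The others lay between 4.54 and 4.96 on the log2 scale. They included ube2c, the ubiquitin-conjugating enzyme of the anaphase-promoting complex, which stood at 1779, 1616 and 1432 CPM in polyA+ RNA and 55.2, 50.6 and 68.0 CPM in Ribo-Zero RNA (4.80, SE 0.22). Its polyA+ and Ribo-Zero values did not overlap. The RNA-binding protein gene hnrnpa0 reached 1296, 2012 and 1497 CPM in polyA+ libraries, against 58.2, 53.7 and 63.2 CPM in Ribo-Zero libraries (4.76). Genes for the transcriptional corepressor drap1 (4.68), the Mediator subunit med19 (4.61) and the elongin subunit tceb2 (4.54) were also among them, as was the tight junction gene cldn6.2, with 4095, 8465 and 5872 CPM in polyA+ RNA and 247, 244 and 255 CPM in Ribo-Zero RNA (4.56, SE 0.28). The rest of the 12 were cep112 (4.96), c6orf108 (4.92), pcnp (4.90), ppdpf (4.76) and stk4 (4.62).

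At the other end stood mRNAs that were plain in total RNA and nearly missing from polyA+ RNA. The nuclear pore gene nup155 had 21, 3 and 2 counts in polyA+ libraries (1.76, 0.298 and 0.197 CPM), against 247, 223 and 228 CPM in Ribo-Zero libraries (log2 fold change -8.50, SE 0.71, adjusted p = 0.00119). A similar level in total RNA was seen for xarp, with 1.93, 1.19 and 0.394 CPM in polyA+ RNA and 219, 274 and 257 CPM in Ribo-Zero RNA (-7.81, SE 0.57). Neither gene passed 23 counts in any polyA+ library. The kinase gene csk, whose product restrains Src, had 0.502, 0 and 0.787 CPM in polyA+ RNA and 103, 112 and 104 CPM in Ribo-Zero RNA (-8.02), and gemin5, of the SMN complex that assembles snRNPs, had 0.251, 0 and 0.0984 CPM in polyA+ RNA and 44.5, 38.5 and 44.7 CPM in Ribo-Zero RNA (-8.41). The highest polyA+ value of gemin5, 0.251 CPM, was 3 counts, so the size of its fold change is uncertain. The SUMO ligase gene pias3 and the exocyst gene exoc6b had 2 counts each over all polyA+ libraries, and from pooled counts the Ribo-Zero level exceeded the polyA+ level 387-fold for pias3 (exact 95% interval 107 to 3197) and 356-fold for exoc6b (98.3 to 2943), intervals that cover counting error only. The remaining 6 of the 12 lay between -7.84 and -7.67 and included the histone methyltransferase gene ash1l (-7.74), the snRNA transcription factor gene snapc4 (-7.81) and znf638 (-7.84). Without the 2.0 hpf pair znf638 kept its direction at -7.33 but lost its call.

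The A, B, D and E cyclins fell on both sides. Other cyclins were not in this list, among them ccnf, taken up below, with log2 ratios of -5.31, -4.31 and -3.75 at the egg stages. All 10 tested were called, 6 (60%) rich and 4 (40%) poor, against 26.5% and 30.1% of all genes, and their median was 2.50, against -0.35 for all genes. The B cyclin genes ccnb1 and ccnb2, whose products drive mitosis with Cdk1, were rich. For ccnb1 the polyA+ libraries had 6270.4, 2746 and 2398 CPM at 0.0, 1.0 and 2.0 hpf and the Ribo-Zero libraries 689, 494 and 434 CPM (2.71, SE 0.22, adjusted p = 0.00113). For ccnb2 the values were 3677, 2339.8 and 2140.4 CPM in polyA+ RNA and 442, 259 and 276 CPM in Ribo-Zero RNA (3.06, SE 0.15). The highest value fell at 0.0 hpf in each library type, and the lowest polyA+ value was above the highest Ribo-Zero value. The A cyclin genes ccna1 (2.54) and ccna2 (2.61), ccnb1.2 (2.46) and the S-phase cyclin gene ccne1 (3.23) were also rich. The poor members were ccnd1 (-4.23) and ccnd2 (-2.92), D cyclins of the G1 phase that cleavage cycles lack, the second E cyclin gene ccne2 (-2.34), and ccnb3. Without the 2.0 hpf pair 2 were poor, since ccnd1 (-4.33) and ccne2 (-2.43) lost their calls, and ccne2 also lost its call without the 1.0 hpf pair (-1.93). The ccnb3 transcript was present in total RNA at 82.8, 79.2 and 83.3 CPM and stood at 0.502, 1.29 and 5.21 CPM in polyA+ RNA (-5.61, SE 0.77, adjusted p = 0.00391).

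Of 19 mRNAs listed for tail lengthening at oocyte maturation, 11 (57.9%) were rich and 4 (21.1%) poor, against 26.5% and 30.1% of all genes, with a median of 1.39. Besides the cyclins, mos, the kinase that holds the egg in metaphase, had 356, 408 and 298 CPM in polyA+ RNA and 145, 125 and 131 CPM in Ribo-Zero RNA (1.39, SE 0.19). The gene btg4, whose product recruits the CCR4-NOT deadenylase in mouse eggs, had 2397, 1845 and 1448 CPM in polyA+ RNA and 241, 196 and 181 CPM in Ribo-Zero RNA (3.18, SE 0.16). The list also held cdc20 (2.38), an activator of the anaphase-promoting complex, and cdk1 (1.82). Its poor members included ccnb3 and fbxo5 (-2.77), the gene for the Emi1 inhibitor of the anaphase-promoting complex. On equal totals the list gave 7 rich and 5 poor members, with mos (0.43) and cdk1 (0.86) among the calls lost. Without either the 1.0 or the 2.0 hpf pair 2 were poor, and fbxo5 lost its call in both cases (-2.50 without 1.0 hpf and -2.24 without 2.0 hpf).

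The 4 Eg mRNAs changed their standing within the egg stages. The replication kinase gene cdk2 had 573, 281 and 152 CPM in polyA+ libraries and 119, 112 and 119 CPM in Ribo-Zero libraries (1.32, SE 0.40, adjusted p = 0.0407), and melk, a mitotic kinase gene, had 1053, 438 and 305 CPM in polyA+ RNA and 170.5, 162 and 184 CPM in Ribo-Zero RNA (1.59, SE 0.40, adjusted p = 0.0237). The spindle kinesin gene kif11 had 1917, 1036 and 479 CPM in polyA+ RNA and 458, 429 and 439 CPM in Ribo-Zero RNA, and missed the threshold (1.16, SE 0.40, adjusted p = 0.0573). In these 3 the total level was flat and every polyA+ value was above it, most widely at 0.0 hpf. The Aurora A gene aurka crossed over, with 968, 51.7 and 50.8 CPM in polyA+ RNA and 311, 271 and 264 CPM in Ribo-Zero RNA (-1.22, SE 1.01, adjusted p = 0.33). Without the 0.0 hpf pair 0 of the 4 were rich and aurka was poor at -2.53, with melk at 0.94 and cdk2 at 0.70, and without the 1.0 hpf pair 0 were rich, with melk at 1.61 and cdk2 at 1.25. Without the 2.0 hpf pair 3 were rich, kif11 among them at 1.55. The kif11 gene was also rich by DESeq2 (1.11), without the replicate block (1.37) and after median centring (1.51). Of the 4, 0 were called with equal library totals.

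A like dependence on the 0.0 hpf library appeared in ehmt1, a histone H3 lysine 9 methyltransferase gene. It had 179.9 CPM in polyA+ RNA and 143 CPM in Ribo-Zero RNA at 0.0 hpf, but 1.89 and 1.38 CPM in polyA+ RNA at 1.0 and 2.0 hpf, against 161 and 155 CPM in Ribo-Zero RNA. Its average over the 3 times was not called by the edgeR test (-4.78, SE 2.08, adjusted p = 0.1). Over the same 3 times ehmt1 was poor by DESeq2 (-5.13) and by limma on the deposited values (-4.98), and without the 0.0 hpf pair it was poor at -6.74. Across genes 78 were at least 2-fold higher in polyA+ RNA at 0.0 hpf and at least 2-fold lower at 2.0 hpf, and 26 went the other way. The ratios at 1.0 and 2.0 hpf correlated at 0.96 across the 11706 genes, and those at 0.0 hpf correlated with them at 0.84 and 0.82, a description over genes that share libraries. The T-box determinant gene vegt moved the other way, with 194, 561 and 472 CPM in polyA+ RNA and 182, 229.7 and 200.1 CPM in Ribo-Zero RNA (0.88, SE 0.30, adjusted p = 0.0535), and was rich at 1.12 without the 0.0 hpf pair. The gene fam46c had 146, 367 and 342 CPM in polyA+ RNA and 235, 294 and 319 CPM in Ribo-Zero RNA (-0.09, SE 0.25). It was not called on this scale, but was poor on equal totals (-1.04) and by limma on the deposited values (-1.05). The ornithine decarboxylase gene odc1 was rich throughout, with 4623, 2552 and 2546 CPM in polyA+ RNA and 723, 590.4 and 568 CPM in Ribo-Zero RNA (2.32, SE 0.19, adjusted p = 0.00112).

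**Figure D2:**
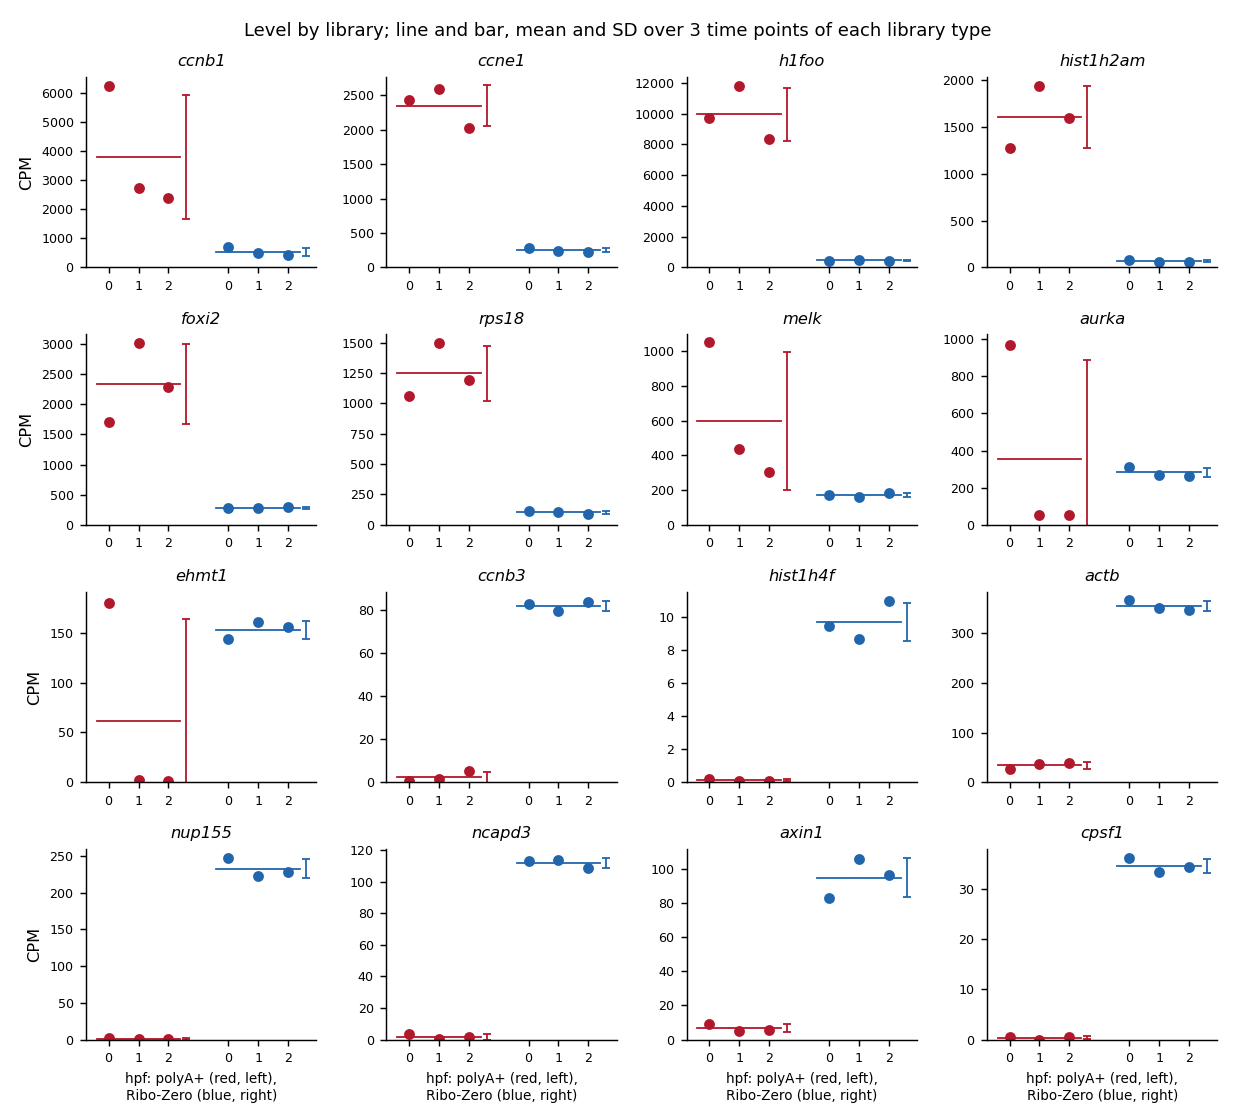
Each panel gives the level of 1 gene (CPM, linear axis from 0) in the 3 polyA+ libraries, in red at the left, and the 3 Ribo-Zero libraries, in blue at the right, at 0.0, 1.0 and 2.0 hpf; lines are means and bars SD over the 3 time points, cut at 0. In ccnb1, ccne1, h1foo, hist1h2am, foxi2, rps18 and melk all polyA+ points lie above all Ribo-Zero points, in aurka and ehmt1 only the 0.0 hpf polyA+ point does, and in ccnb3, hist1h4f, actb, nup155, ncapd3, axin1 and cpsf1 all polyA+ points lie below.

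Of 54 genes of mitosis and the spindle, 18 (33.3%) were rich and 11 (20.4%) poor, against 26.5% and 30.1% of all genes. The median was 0.25. Equal library totals gave 10 rich and 21 poor of the 54, with a median of -0.71. Over all 11706 genes that setting gave 1609 rich and 5483 poor, with a median of -1.301, so the group still lay above the median gene. The chromosomal passenger genes birc5.1 (survivin) and incenp were rich. For birc5.1 the polyA+ libraries had 933, 1117 and 940.3 CPM and the Ribo-Zero libraries 66.5, 44.9 and 54.1 CPM (4.19, SE 0.24), and for incenp the values were 5738, 2249.7 and 2031 CPM in polyA+ RNA and 618, 589 and 604 CPM in Ribo-Zero RNA (2.29, SE 0.34). Rich members also included the checkpoint gene mad2l1 (2.56) and plk1 (1.80), the second of which was not called on equal totals (0.84). Condensin subunits parted: ncapd2, of condensin I, had 5889, 4092 and 2884 CPM in polyA+ RNA and 1108, 1001 and 994 CPM in Ribo-Zero RNA (1.99, SE 0.22), whereas ncapd3, its counterpart in condensin II, had 3.60, 0.199 and 1.38 CPM in polyA+ RNA and 114, 114 and 109 CPM in Ribo-Zero RNA (-6.37, SE 0.84). The spindle pole gene numa1 (-4.67) and the cytokinesis gene ect2 (-3.33) were poor.

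Histone mRNAs of the S-phase type end in a stem-loop in place of a polyA tail, and in frog oocytes some of them carry short tails. Of 17 such rows in the table, 10 passed the filter of at least 10 counts in 3 libraries. Of these 6 (60%) were poor, 3 (30%) rich and 1 not called, against 30.1% poor and 26.5% rich of all genes. The rich share was thus near that of all genes. Most of the poor members, namely hist1h4f, hist1h2al, hist2h2ab and hist2h2be, passed the filter through their Ribo-Zero counts alone. The 60% rests largely on them and is no measure of the group. The H2B gene hist1h2bj had 2.59, 1.69 and 3.44 CPM in polyA+ RNA and 139, 126 and 125 CPM in Ribo-Zero RNA (-5.70, SE 0.34, adjusted p = 0.000929), and the H4 gene hist1h4k 1.34, 1.29 and 2.26 CPM in polyA+ RNA and 53.5, 36.01 and 43.1 CPM in Ribo-Zero RNA (-4.77, SE 0.38). The H4 gene hist1h4f had 2, 1 and 1 counts in polyA+ libraries and 9.47, 8.67 and 10.99 CPM in Ribo-Zero libraries (-6.19, SE 0.58). The other poor members were hist1h2al (-6.01), hist2h2ab (-5.25) and hist2h2be (-3.16), all under 20 CPM in total RNA. With any 1 time point left out, the filter passed 5 of these genes, of which 3 were rich and 2 poor. The filter still asked for 3 libraries, so a gene under 10 counts in every polyA+ library could not pass. The median then changed sign through the genes removed, which says nothing of any time point. The median was -3.97 over the 10 genes and between 3.48 and 3.99 over those 5, so neither is a value for the group. The rich members were hist1h2am, with 1274, 1940.5 and 1601 CPM in polyA+ RNA and 82.0, 61.7 and 62.6 CPM in Ribo-Zero RNA (4.54, SE 0.28), hist1h3g (4.11) and hist1h2aa (3.80). The 7 rows below the filter included hist1h4a, with 1 count over the polyA+ libraries and 10 over the Ribo-Zero libraries. Near-identical histone copies are uncertain in level, because the authors counted only reads unique to a single gene.

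Histone variants, whose mRNAs are polyadenylated like other mRNAs, gave 7 (58.3%) rich and 2 (16.7%) poor of 12, against 26.5% and 30.1% of all genes, with a median of 1.83. After h1foo the centromeric histone gene cenpa led, with 1901, 3087 and 2209 CPM in polyA+ RNA and 154, 181 and 155 CPM in Ribo-Zero RNA (3.85, SE 0.18), followed by h2afv (3.82) and the H3.3 gene h3f3a (2.88). The 2 poor members were h2afx, which had 1.51, 2.39 and 1.48 CPM in polyA+ RNA and 27.01, 23.4 and 24.03 CPM in Ribo-Zero RNA (-3.82, SE 0.38), and the linker histone gene h1fx (-3.38). In somatic cells h2afx yields both a stem-loop and a polyadenylated transcript.

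Ribosomal protein mRNAs of the cytoplasm leaned to the polyA+ side. Of 72 tested, 34 (47.2%) were rich and 3 (4.17%) poor, with a median of 1.26, against 26.5% and 30.1% over all genes. The small-subunit gene rps18 had 1057, 1498 and 1191 CPM in polyA+ RNA and 117, 102 and 92.4 CPM in Ribo-Zero RNA (3.58, SE 0.21), and rplp1 had 136, 591 and 529.7 CPM in polyA+ RNA and 33.8, 38.5 and 28.8 CPM in Ribo-Zero RNA (3.41, SE 0.53). The median ratio of the group was 0.49 at 0.0 hpf, 1.299 at 1.0 hpf and 1.43 at 2.0 hpf. The poor members were rpsa (-1.98), rpl7 (-1.70) and rpl3 (-1.55), of which rpl7 lost its call without 1.0 hpf (-1.79). With equal library totals 16 of the 72 were rich and 10 poor, where 1609 of all 11706 genes were rich and 5483 poor. Without 1 time point the rich count lay between 12 and 43, lowest without 2.0 hpf and second lowest, at 19, without 1.0 hpf. Without 2.0 hpf 12 of 71 were rich, a share near the 1935 of 10577 over all genes. Their 3 poor members stood against 1698 over all genes, and their median of 0.92 against -0.28.

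Mitochondrial ribosomal proteins, also encoded in the nucleus, also had a median of 1.26, with 37 (52.1%) of 71 rich and 16 (22.5%) poor, against 26.5% and 30.1% of all genes. On equal totals 21 were rich, without the 2.0 hpf pair 24 were rich, and without either the 1.0 or the 2.0 hpf pair 8 were poor. The gene mrps26 had 113, 201 and 154 CPM in polyA+ RNA and 10.0, 9.48 and 9.71 CPM in Ribo-Zero RNA (3.96, SE 0.29), and mrpl43 was alike at 3.56. At the other end mrpl38 had 0.921, 0 and 0.984 CPM in polyA+ RNA and 26.8, 26.02 and 27.8 CPM in Ribo-Zero RNA (-5.60, SE 0.94). The values of mrps26 were above, and those of mrpl38 below, all values of the other library type.

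Genes with symbols of oxidative phosphorylation subunits gave 26 (37.1%) rich and 15 (21.4%) poor of 70, with a median of 0.13. Over all genes 26.5% were rich and 30.1% poor. The symbols also took in cox4nb (1.51, rich), atp5s (-3.62, poor) and atp5sl (-5.10, poor), which are not structural subunits. With equal library totals 9 of the 70 were rich and 27 poor, and the median was -0.83. Over all 11706 genes that setting gave 1609 rich and 5483 poor, with a median of -1.301. Within complex III uqcr11 had 182, 247 and 196 CPM in polyA+ RNA and 14.1, 12.8 and 10.7 CPM in Ribo-Zero RNA (4.06, SE 0.24), the Rieske protein gene uqcrfs1 was rich at 2.599, and the core protein gene uqcrc2 had 1 count over all polyA+ libraries and 13.7, 9.76 and 8.95 CPM in Ribo-Zero libraries. Pooled counts put uqcrc2 349-fold higher in Ribo-Zero RNA than in polyA+ RNA (exact 95% interval 62.3 to 13810, counting error only). The ATP synthase alpha gene atp5a1 was poor, with 10.46, 7.46 and 8.07 CPM in polyA+ RNA and 165, 127 and 153 CPM in Ribo-Zero RNA (-4.10, SE 0.23). Without 1 time point the filter passed 65 members, of which 9 to 27 were rich and 3 to 12 poor. The rich count was lowest without 2.0 hpf and the poor count without 1.0 hpf.

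Genes with symbols of translation initiation factors gave 21 (39.6%) rich and 16 (30.2%) poor of 53, against 26.5% and 30.1% of all genes. The list also held the Argonaute genes eif2c1, eif2c2 (-2.76), eif2c3 (-1.04) and eif2c4 (-2.68), all poor. It further held kinase genes, of which eif2ak1 (1.43) and eif2ak2 (1.28) were rich and eif2ak4 (-3.81) poor. These shares are therefore not those of initiation factors alone. The median was 0.62. With equal library totals 9 were rich and 19 poor, with a median of -0.34, and without the 2.0 hpf pair 13 were rich. The start-codon factor gene eif1 had 3642, 2475 and 2348 CPM in polyA+ RNA and 364, 266 and 257 CPM in Ribo-Zero RNA (3.24, SE 0.15), and eif1ad was rich at 4.27 and eif6 at 3.63. The scaffold gene eif4g1, whose protein links the cap complex to PABP, was poor, with 28.3, 50.8 and 41.2 CPM in polyA+ RNA and 331, 361 and 370.1 CPM in Ribo-Zero RNA (-3.18, SE 0.23), and so was eif3b (-4.56). The Argonaute gene eif2c1 was poor at -5.25 on the strength of 1.0 and 2.0 hpf, where it had 0.199 and 0.295 CPM in polyA+ RNA, against 11.4 CPM at 0.0 hpf and 49.2, 43.5 and 41.4 CPM in Ribo-Zero RNA. Its call was lost when either of the later pairs was left out (-4.19 without 1.0 hpf and -4.44 without 2.0 hpf). Of 7 genes with elongation factor symbols 2 (28.6%) were rich, eef1e1 (3.49) and eef1g (1.34), and 2 (28.6%) poor. These shares were near the 26.5% and 30.1% of all genes. Of these genes eef1e1 and the kinase gene eef2k carry the symbol but are not elongation factors themselves. The call of eef1g was lost without the 2.0 hpf pair (1.14) and on equal totals (0.39). Of 31 proteasome subunits 10 (32.3%) were rich and 10 poor, close to the 26.5% and 30.1% of all genes. They were led by psmb6 (2.31) and psma2 (2.30) on the rich side and psmd14 (-3.92) and psmd11 (-3.56) on the poor side. With equal library totals 1 was rich and 14 were poor, and without the 1.0 or the 2.0 hpf pair 3 and 2 were rich, psmb6 losing its call in all 3 cases.

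**Figure D3:**
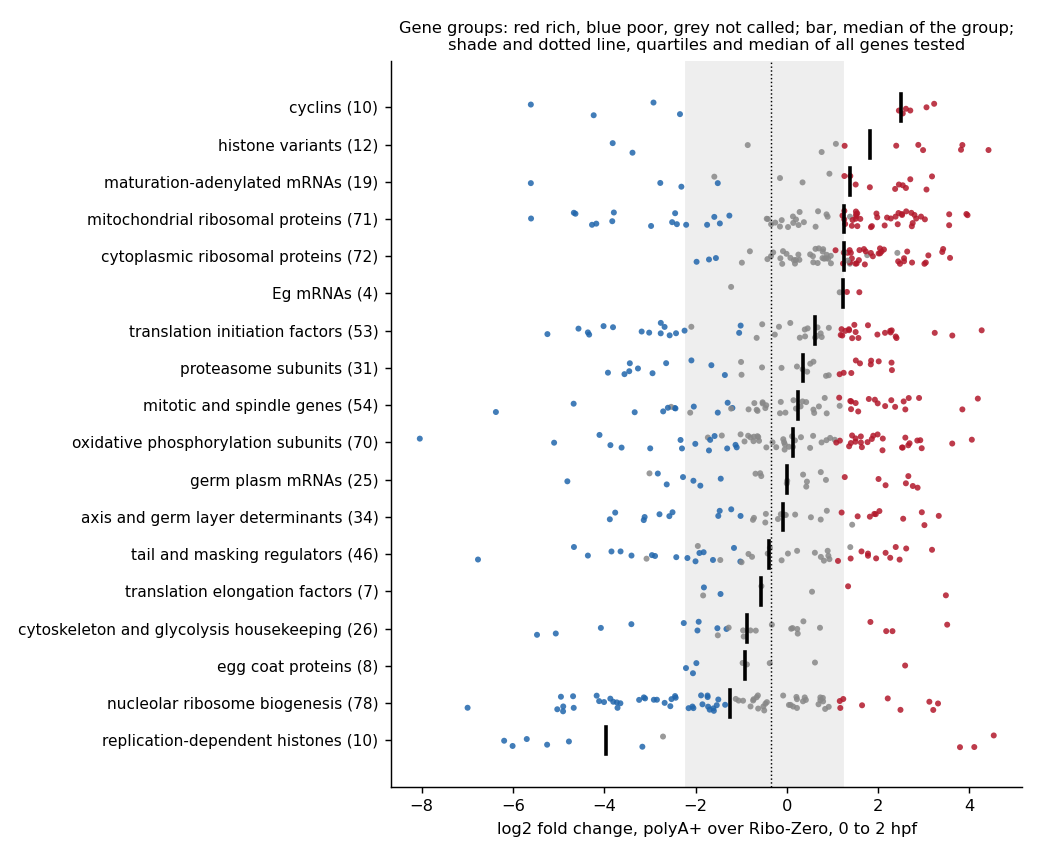
Log2 fold change, polyA+ over Ribo-Zero, at 0 to 2 hpf of each member tested of 18 gene groups, with the number tested in brackets, red for rich, blue for poor and grey for not called; bars are group medians, and the shade and dotted line give the quartiles and median of all genes. Medians run up to 2.50 for the A, B, D and E cyclins. The lowest is that of replication-dependent histones, over 10 genes, of which the filter passed 5 when 1 time point was left out. Every group of 10 or more members except the cytoplasmic ribosomal proteins has called members below -2.2.

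Nucleolar ribosome biogenesis factors were the largest group on the poor side. Of 78 tested, 39 (50%) were poor and 9 (11.5%) rich, against 30.1% and 26.5% of all genes, with a median of -1.23, or -2.19 with equal library totals, where all genes had -1.301. The helicase gene ddx10 had 0.921, 0.497 and 0 CPM in polyA+ RNA and 52.0, 57.3 and 57.2 CPM in Ribo-Zero RNA (-7.00, SE 0.90, adjusted p = 0.00328), and the processome genes rrp12 (-4.95) and nop14 (-4.90) were alike. The rich members included npm1, nucleophosmin, with 4048, 2009.6 and 1653 CPM in polyA+ RNA and 294, 248 and 232 CPM in Ribo-Zero RNA (3.21, SE 0.25), utp3 (3.32) and nop10 (3.13). Without the 1.0 or the 2.0 hpf pair, and on equal totals, 5 were rich. The group also held nolc1, at 544, 469 and 486 CPM in polyA+ RNA and 422, 530.4 and 500.4 CPM in Ribo-Zero RNA (0.05, SE 0.18), within its error of 0 on this scale and at -0.91 with equal library totals.

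Of 26 genes in common use as references, cytoskeletal, glycolytic and other, 9 (34.6%) were poor and 4 (15.4%) rich. Over all genes 30.1% were poor and 26.5% rich, so the poor share was near that of all genes. The median was -0.87, and on equal totals 15 were poor. Cytoplasmic actin, actb, had 26.4, 36.7 and 38.8 CPM in polyA+ RNA and 366, 352 and 347 CPM in Ribo-Zero RNA (-3.41, SE 0.22, adjusted p = 0.000947). The glycolytic genes tpi1 (-5.06) and eno1 (-4.07) were poor, tpi1 with 2.93, 4.67 and 5.21 CPM in polyA+ RNA and 149, 142 and 129 CPM in Ribo-Zero RNA. The profilin gene pfn2 had 6.03, 0 and 1.38 CPM in polyA+ RNA and 66.4, 61.3 and 63.2 CPM in Ribo-Zero RNA (-5.47, SE 1.23), a call that was lost without 2.0 hpf. The rich members were tmsb4x (3.52), odc1, hsp90ab1 (2.18) and tuba1b, of which odc1 and hsp90ab1 are neither cytoskeletal nor glycolytic.

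Among germ plasm mRNAs, the maternal RNAs of the future germ cells, 7 (28%) of 25 were rich and 7 poor, shares near the 26.5% and 30.1% of all genes, with a median of 0.01. On equal totals 11 were poor, and without the 1.0 or the 2.0 hpf pair 4 and 3 were poor. The DEAD-box gene ddx25 had 383, 755 and 446 CPM in polyA+ RNA and 84.4, 68.6 and 57.5 CPM in Ribo-Zero RNA (2.87, SE 0.30), the translational repressor gene nanos1 47.0, 61.9 and 31.1 CPM in polyA+ RNA and 7.80, 7.01 and 5.28 CPM in Ribo-Zero RNA (2.76, SE 0.29), and dnd1, which protects germline mRNAs from microRNAs in zebrafish, was rich at 2.67. The Tudor genes tdrd6 (-2.83) and tdrd1 (-2.63) and the Piwi gene piwil2 (-2.27), all of the piRNA pathway, were poor. The call of tdrd6 was lost without the 2.0 hpf pair (-2.71), and that of piwil2 without the 1.0 hpf pair (-1.64), against a 1.5-fold null and after median centring (-1.93). The lowest was efnb1, with 5.11, 0 and 0.885 CPM in polyA+ RNA and 33.5, 29.3 and 28.1 CPM in Ribo-Zero RNA (-4.81, SE 1.22), which lost its call without 2.0 hpf. The gene trim36, needed for dorsal axis formation in *Xenopus*, had 638, 1011 and 336 CPM in polyA+ RNA and 257, 242 and 249 CPM in Ribo-Zero RNA (1.27, SE 0.35), and lost its call without 1.0 hpf (0.81), on equal totals (0.31) and against a 1.5-fold null.

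Axis and germ layer determinants gave 10 (29.4%) rich and 11 (32.4%) poor of 34, near the 26.5% and 30.1% of all genes, with a median of -0.09, and 5 rich and 17 poor with equal library totals. Without the 1.0 or the 2.0 hpf pair 6 and 7 were poor. The ectodermal determinant foxi2 had 1701, 3022 and 2283 CPM in polyA+ RNA and 276, 273 and 293 CPM in Ribo-Zero RNA (3.02, SE 0.23). Both wnt11b (2.55), the maternal Wnt ligand, and gdf1 (1.55), the vegetal TGF-beta ligand, were rich, gdf1 losing its call without the 1.0 hpf pair (1.45) and on equal totals (0.60). Components of the Wnt pathway inside the cell lay on both sides. The activator dvl2 had 326, 301 and 267 CPM in polyA+ RNA and 25.2, 30.0 and 33.9 CPM in Ribo-Zero RNA (3.33, SE 0.23), and the effector ctnnb1, beta-catenin, 1262, 962 and 969 CPM in polyA+ RNA and 862, 679 and 668 CPM in Ribo-Zero RNA (0.53, SE 0.14), short of the 2-fold limit and below 0 with equal library totals (-0.43). The destruction complex genes axin1 and apc were poor. For axin1 the polyA+ libraries had 9.37, 5.17 and 5.41 CPM and the Ribo-Zero libraries 82.8, 106 and 96.5 CPM (-3.88, SE 0.36), and for apc 241, 18.997 and 24.987 CPM stood in polyA+ RNA against 564, 677 and 594 CPM in Ribo-Zero RNA (-3.76, SE 0.96). The call of apc was lost without the 1.0 hpf pair (-2.95) and without the 2.0 hpf pair (-3.29). Egg coat genes gave 1 (12.5%) rich of 8, zp3 (2.59), and 3 (37.5%) poor, among them zpax (-2.21), against 26.5% and 30.1% of all genes, with a median of -0.92. With no fold limit 2 were rich and 5 poor, and on equal totals 6 were poor.

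Of 46 regulators of tails and masking 12 (26.1%) were rich and 16 (34.8%) poor, about the 26.5% and 30.1% of all genes, with a median of -0.39. On equal totals 7 were rich, and without the 1.0 or the 2.0 hpf pair 6 and 9 were poor. Rich members included cpeb1, the protein that binds the cytoplasmic polyadenylation element, with 1284, 1998 and 1829.6 CPM in polyA+ RNA and 391, 374 and 355 CPM in Ribo-Zero RNA (2.17, SE 0.21), the cytoplasmic polyA polymerase gene papd4 (2.47) and the polyA-binding protein gene pabpc1 (1.64, and 0.68 and not called on equal totals). The poor members included cpsf1, the large subunit of the cleavage and polyadenylation specificity factor, with 0.418, 0 and 0.590 CPM in polyA+ RNA and 36.1, 33.4 and 34.3 CPM in Ribo-Zero RNA (-6.77, SE 0.83), the repressor genes pum2 (-4.66) and lsm14a (-3.84), and cnot1 (-2.42), the scaffold of the deadenylase complex. For pum2 the polyA+ level was 72.0 CPM at 0.0 hpf and 4.58 and 3.54 CPM at 1.0 and 2.0 hpf, against 246, 249 and 251 CPM in Ribo-Zero RNA. Its call was lost without the 1.0 hpf pair (-3.94) and without the 2.0 hpf pair (-3.83), and that of lsm14a without the 2.0 hpf pair (-3.59). Of 21 rows for early zygotic genes, 1 passed the filter, hes7.1. It was present before transcription, at 36.1, 36.2 and 39.1 CPM in Ribo-Zero RNA and 4.27, 8.16 and 19.7 CPM in polyA+ RNA (-2.06, SE 0.49), and lost its call without 1.0 hpf.

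The second question was which of these differences belonged to the egg stages. The ratio of polyA+ to Ribo-Zero level at 0.0 to 2.0 hpf was set against that at 6.0 to 8.0 hpf in 1 model over 12 libraries. Of 11001 genes tested, the ratio was at least 2-fold higher at egg stages for 1553 (14.1%) and at least 2-fold lower for 1988 (18.1%), and 7460 were not called. Of 2982 rich genes tested here, 1067 were higher at egg stages and 48 lower. Of 3397 poor genes, 1381 were lower and 26 higher, so most rich and most poor genes were not shown to be particular to the egg stages. The same egg libraries enter both fits, so these counts are a description. With equal library totals 886 were higher and 2309 lower. In the later window new transcripts and tail changes on stored ones cannot be told apart, nor in pooled embryos can fewer cells holding a transcript and less of it per cell. With 3.0 to 5.0 hpf as the later window the edgeR test made 0 calls in either direction (3639 genes at an unadjusted p under 0.05, smallest adjusted p = 0.0819), whereas DESeq2 called 880 higher and 955 lower.

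The genes with the largest deficit at egg stages included 2 cyclins, ccnb3 and ccnf. For ccnb3 the log2 ratio was -6.44, -5.56 and -3.98 at 0.0, 1.0 and 2.0 hpf and -1.08, 0.21 and 1.19 at 6.0, 7.0 and 8.0 hpf (difference -5.73, SE 0.91). For ccnf, the F-box cyclin, it was -5.31, -4.31 and -3.75 at the egg stages and -0.15, 1.26 and 2.11 later (-5.64, SE 0.69). In Ribo-Zero RNA both were about as abundant in either window, with averages of 85.04 CPM at egg stages and 110 CPM later for ccnb3 and 121 CPM at egg stages and 119 CPM later for ccnf. The other 4 were ints12 of the Integrator complex (-5.33), sels (-5.27), trip4 (-5.24) and dusp11.2 (-5.11), each lower at all 3 egg times than at any later time.

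In the 6 genes with the largest excess the ratio was highest at 0.0 hpf. For gpt2, an alanine aminotransferase gene, the log2 ratio was 2.00, -1.70 and -0.80 at 0.0, 1.0 and 2.0 hpf and -3.94, -5.26 and -6.52 at 6.0, 7.0 and 8.0 hpf (difference 5.03, SE 1.16). For wee2, an inhibitory kinase of Cdk1, it was 2.23, -1.81 and -0.84 at the egg stages and -4.07, -5.01 and -4.85 later (4.45, SE 1.02). The deadenylase gene cnot8 was alike, with 1.92, -1.51 and -1.60 at the egg stages and -4.005, -5.88 and -4.73 later (4.63, SE 1.16). Within the egg stages these 3 ratios lay above 0 at 0.0 hpf and below 0 at 1.0 and 2.0 hpf, and 0 of the 3 were called rich or poor. The rest were cep63 (4.54), ccdc18 (4.41) and kiaa1715 (4.36). Of the Eg mRNAs 3 were called higher, melk by 3.75 (SE 0.49), kif11 by 3.305 (SE 0.48) and cdk2 by 1.69 (SE 0.51), and aurka was not called (3.43, SE 1.14, adjusted p = 0.05).

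**Figure D4:**
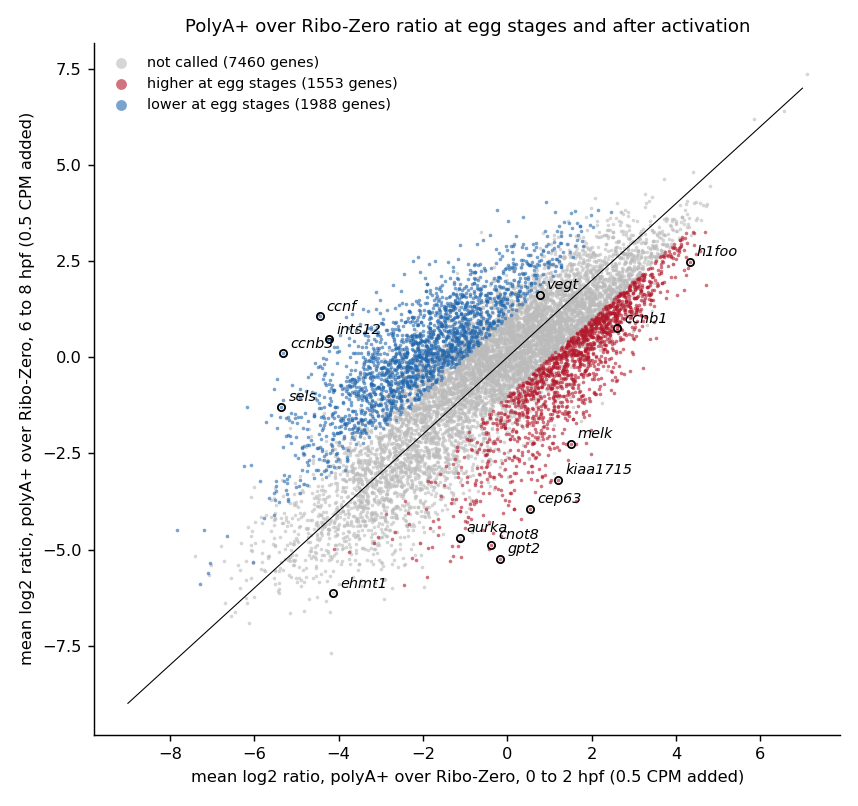
Each point is 1 of 11001 genes, plotted by its mean log2 ratio of polyA+ to Ribo-Zero level at 0 to 2 hpf (horizontal axis) and at 6 to 8 hpf (vertical axis), with the line of equal ratios. The 1553 genes with a higher ratio at egg stages (red) lie below the line, with gpt2, cnot8 and melk, and the 1988 with a lower ratio (blue) lie above it, with ccnb3, ccnf and sels.

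**Figure D5:**
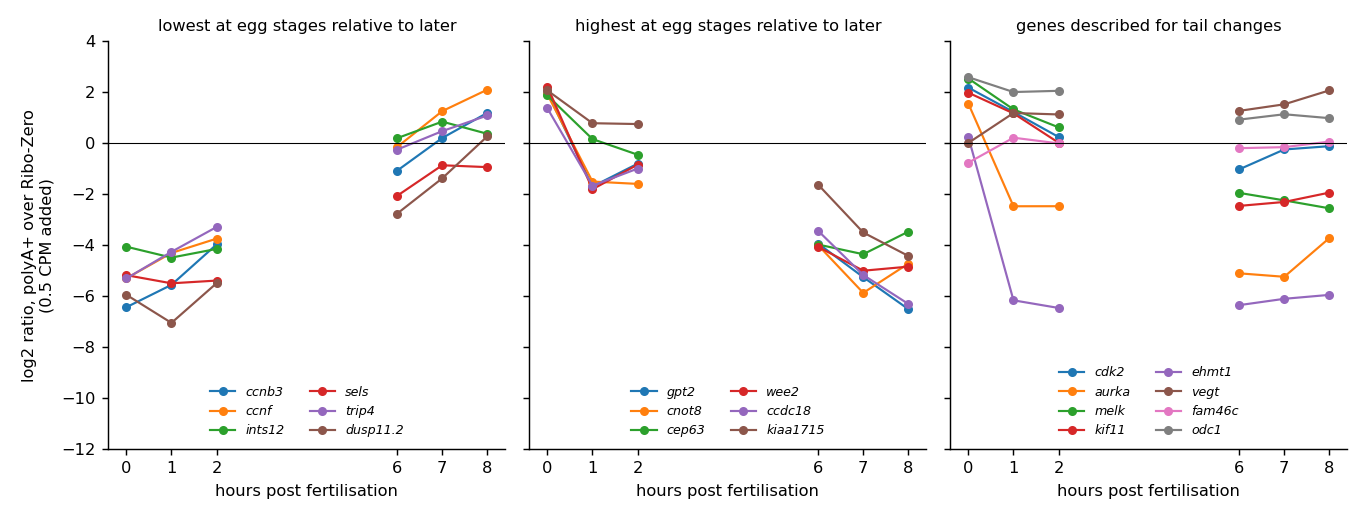
Log2 ratio of polyA+ to Ribo-Zero level by time, 1 point per pair of libraries. Shown are the 6 genes with the lowest ratio at egg stages relative to later (left), the 6 with the highest (middle) and 8 genes taken from the paper (right). Of the right genes odc1 served the paper for normalisation, and the others have a described tail change. The left genes lie between -7.06 and -3.29 at egg stages and at or above -2.77 from 6.0 hpf, and the ratio of ehmt1 is 0.25 at 0.0 hpf and -5.96 or lower at each other time.

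The gene groups were also counted between the windows, against 14.1% higher and 18.1% lower over all genes, and no test compared the groups. Of 19 mRNAs listed for tail lengthening at maturation, 11 had a higher ratio at egg stages and 1 a lower one. Their median ratio was 1.29 at egg stages and -0.11 later. Of 54 mitotic and spindle genes, 27 were higher and 4 lower (0.16 at egg stages and -1.004 later). In other groups more members were lower than higher. Nucleolar factors gave 8 higher and 41 lower of 78 (-1.26 at egg stages and 0.14 later). The oxidative phosphorylation list gave 1 higher and 34 lower of 68 (0.06 and 1.77). Cytoplasmic ribosomal proteins gave 0 higher and 29 lower of 70 (1.13 and 2.39), and proteasome subunits 0 higher and 14 lower of 31. The reference genes, cytoskeletal, glycolytic and other, gave 3 higher and 13 lower of 26 (-0.80 and 0.68). Over all genes the median ratio was -0.38 at egg stages and -0.05 later. Germ plasm genes gave 3 higher and 3 lower of 25 and axis genes 5 and 5 of 33, near the shares of all genes.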

How the data were processed

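Paired reads were mapped by the authors with Bowtie 0.12.7 to transcripts of the v7.1 gene models, to which they had added other transcripts as well as ribosomal and mitochondrial sequences. Reads shared between genes were not counted. The deposited raw counts per gene were used for all main results. The deposited normalised signal values, which are these counts scaled by the authors to a common library total without ribosomal reads, served in 1 alternative. The table held 20193 gene rows, and 7 rows for ribosomal, mitochondrial, reporter and AC_EC sequences (up to 27.3% of counts in 1 library, nearly all ribosomal) were left out.

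A gene was tested if 3 or more of the 6 libraries held 10 or more counts. The quasi-likelihood test of edgeR 4.0.16, run in R 4.3.3, used TMM factors, time as a block and Benjamini-Hochberg adjustment, and genes were called at an adjusted p under 0.05 and a log2 fold change of at least 1 in either direction. Standard errors are the log2 fold change divided by the root of F. CPM are scaled by TMM, and 0.5 CPM was added before ratios of single time points were taken. The egg and later windows were compared by the interaction of library type with window over 12 libraries, requiring 10 counts in 3 of the 6 libraries of each window. A group at 0 was taken to allow 3 counts over its 3 libraries. Counting intervals are exact and cover counting error only. The paper states that each sample's RNA was split between both library types, so time pairs the libraries. Over 11706 genes the deviations of paired libraries from their type's mean correlated at 0.0393 to 0.0575, against -0.0536 to 0.00342 for other pairings. Deviations within a type sum to 0, so these small correlations are tied to one another and are no test of the pairing. Both fits were run on simulated counts with as many genes raised as lowered and no drift within a window. These settings differ from the data, so the simulation does not bear on the scale between library types or on the error rate.

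Alternatives used RLE factors, equal library totals, no filter, DESeq2 1.42.0, limma 3.58.1 on log2(value + 10), no block, each pair left out, no fold limit, a 1.5-fold null (glmTreat) and 3.0 to 5.0 hpf as the later window. A median-centred scale was added after seeing the data. Groups were made from gene symbols and described by counts and medians, with no test of their own. A group can therefore hold genes that share a symbol stem but not the function. Genes are named where they were among the 12 largest called changes each way with 1 sign at all 3 times and at least 20 CPM. The extremes and the 2 most abundant of a group are also named, as are the 6 largest changes each way between windows. Other genes are named because the paper describes tail changes for them. From the paper also came odc1, which it used for normalisation, and hist1h4a, whose mRNA it gives as not polyadenylated. A further set of group members and abundant genes was named after their values were seen. Members, groups and tests were chosen with earlier results of these data known. No genome of the build was used, so no sequence, position or transcript length is given.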

Additional observations from a re-analysis of the deposited data

Results flagged for a closer look

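The ratio of polyA+ to Ribo-Zero level differed between the egg stages and 6.0 to 8.0 hpf by the test of the difference itself for 1553 genes that were higher and 1988 that were lower at the egg stages. Among the genes named from that test, the log2 ratio at egg stages minus the later one was -5.73 for ccnb3, -5.64 for ccnf, -5.33 for ints12, -5.27 for sels, -5.24 for trip4 and -5.11 for dusp11.2. It was 5.03 for gpt2, 4.63 for cnot8, 4.54 for cep63, 4.45 for wee2, 4.41 for ccdc18 and 4.36 for kiaa1715. With 3.0 to 5.0 hpf as the later window each of these genes kept its direction and lost its call by edgeR. The difference then lay between -3.13 (ccnb3) and -2.38 (dusp11.2) for the genes lower at egg stages. For those higher it lay between 2.22 (kiaa1715) and 4.16 (cnot8).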

How the results depend on the processing

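With equal library totals 1609 genes were rich and 5483 poor in polyA+ RNA, and limma on the deposited values gave 1686 and 6066. Leaving out 1 time point gave 1935 to 2860 rich and 1698 to 3302 poor genes, with fewer genes passing the filter, and 1109 to 1367 ratios higher and 1341 to 1934 lower at egg stages. On equal totals 886 ratios were higher at egg stages, and with 3.0 to 5.0 hpf as the later window 0 were higher and 0 lower by edgeR. RLE factors, no filter, DESeq2, no fold limit, glmTreat and, chosen after seeing the data, median centring each kept within 1.5 times those of the 4 counts over all genes, with 6.0 to 8.0 hpf as the later window, for which they were run. Counts within gene groups moved more, with 1 rich Eg mRNA by glmTreat and 2 rich and 5 poor egg coat genes with no fold limit, and with 3.0 to 5.0 hpf as the later window DESeq2 called 880 higher and 955 lower. Without the replicate block 3323 genes were rich and 3639 poor, and 1705 ratios were higher and 2173 lower, all within 1.5 times of the paired fit.

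Of 1839 gene values under alternatives, 1705 kept direction and side of the threshold, 77 lost their call, 20 gained one and 37 changed sign. On equal totals and in limma, in that order where they differ, log2 fold changes fell below 0 for ctnnb1 (-0.43 in each), zpd (-0.34 in each), velo1 (-0.21 in each), psmd1 (-0.51 in each), vegt (-0.078 and -0.084), nolc1 (-0.91 in each) and cep63 (-0.35 and -0.33). For nolc1 it was -0.0073 with RLE factors and with DESeq2 and -0.0053 without a filter. Without the replicate block it was 0.34 for aurka, 0.0103 for fam46c, 0.97 for wee2, 0.82 for gpt2, 0.20 for ccdc18 and 0.73 for cnot8. After median centring it was 0.26 for fam46c, 0.20 for wee2 and 0.19 for gpt2. With 1 pair left out the range was -0.25 to 0.10 for nolc1, -0.36 to 0.063 for fam46c, -0.18 to 0.99 for cep63, -1.37 to 0.72 for wee2, -1.31 to 0.63 for gpt2, -1.38 to 0.22 for ccdc18 and -1.62 to 0.20 for cnot8. The median of all genes also moved, from -0.35 to -1.301 on equal totals and -1.21 in limma, and to -0.00079 after median centring. The sign changes under those settings thus came with a shift of the scale over all genes. The cause of the other sign changes was not tested.

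With 3 pairs from 1 clutch, differences between females were not measured. A gene at 0 in all polyA+ libraries has no finite ratio, and its deficit is limited by depth. The ratio depends on the scale set between library types, for which no external standard was used here.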
